A study of Mus musculus with 3 samples.

Results

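Vegfa, Vegfc, Kdr, Flt1, Nrp1, Angpt1, Angpt2, Tek, Apln and Aplnr encode ligands and receptors of the vascular endothelial growth factor (VEGF), angiopoietin and apelin systems, and they were followed through the cells of mouse subcutaneous fat. The 10 genes were taken by symbol from the 31053 features of each expression matrix, and all 10 had at least 1 UMI (unique molecular identifier, a counted RNA molecule) in every library. Each gene was summed over 6 lineages: capillary, venous and arterial endothelial cells, mural cells of the vessel wall, stromal cells and macrophages.

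Single-cell RNA sequencing was done on the stromal and vascular cells of inguinal adipose tissue, a subcutaneous white fat depot near the hind limb. There was 1 library for each of 3 genotypes: Pdgfra-Cre; TERT fl/fl, Pdgfrb-Cre; TERT fl/fl, and TERT +/+, here called the Pdgfra-Cre, Pdgfrb-Cre and wild-type libraries. In the first and second, floxed alleles of Tert, which encodes the catalytic subunit of telomerase, were combined with Cre recombinase named for a platelet-derived growth factor receptor gene, both of which are expressed in mesenchymal cells, and Pdgfrb in mural cells too. The wild-type library's title carries the letters PBS, which the labels do not explain, and the labels give no Cre for it, so an effect of Cre itself cannot be told apart from the deletion. Cells went through magnetic removal of dead cells and removal of red blood cells, then 10x Genomics 3′ v3 capture. The labels state neither age, sex and animal numbers nor which exons were floxed.

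Vegfa and Vegfc are secreted ligands of the VEGF family. Kdr (VEGFR2) is the main signalling receptor for Vegfa on endothelial cells and is also bound by processed Vegfc, Flt1 (VEGFR1) binds Vegfa tightly with weak signalling and in a soluble form acts as a decoy, and Nrp1 (neuropilin-1) is a co-receptor. Angpt1 activates the endothelial receptor Tek (Tie2) and steadies vessels, while Angpt2, released by activated endothelium, can block or activate Tek depending on context. Apln encodes apelin, a peptide made by sprouting endothelial cells, and Aplnr is its G-protein-coupled receptor. Adipose tissue depends on this traffic between ligand-making stroma and receptor-bearing vessels as it grows and shrinks. Counts from the 3′ end do not separate the isoforms of Vegfa, or soluble from membrane-bound Flt1.

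In the mouse GRCm38 annotation Vegfa lies on chr17:46016993-46032369 on the minus strand, Kdr on chr5:75932827-75978458 and Flt1 on chr5:147561604-147726011, both on the minus strand, and Tek on chr4:94739289-94874976 on the plus strand. The 250 bases before the RefSeq start of these 4 genes (RefSeq, GRCm38.p6) are shown because the 3 receptor genes were high in every endothelial lineage and the ligand gene was high in stroma, and each is written 5′ to 3′ in the direction of the gene. Capitals mark GGAA or its complement TTCC, the core letters bound by ETS-family factors, which act at many endothelial genes. The windows are chr5:75978456-75978705 for Kdr, chr5:147726012-147726261 for Flt1, chr4:94739039-94739288 for Tek and chr17:46032378-46032627 for Vegfa.
Kdr: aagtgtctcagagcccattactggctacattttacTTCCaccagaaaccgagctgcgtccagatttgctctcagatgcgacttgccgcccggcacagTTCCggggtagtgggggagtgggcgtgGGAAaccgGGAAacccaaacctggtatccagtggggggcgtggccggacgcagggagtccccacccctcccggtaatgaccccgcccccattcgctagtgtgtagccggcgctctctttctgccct
Flt1: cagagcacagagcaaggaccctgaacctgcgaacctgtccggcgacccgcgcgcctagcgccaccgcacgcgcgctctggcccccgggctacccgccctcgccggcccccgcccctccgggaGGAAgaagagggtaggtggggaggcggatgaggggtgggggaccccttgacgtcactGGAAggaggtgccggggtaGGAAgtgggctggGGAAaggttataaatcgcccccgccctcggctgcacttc
Tek: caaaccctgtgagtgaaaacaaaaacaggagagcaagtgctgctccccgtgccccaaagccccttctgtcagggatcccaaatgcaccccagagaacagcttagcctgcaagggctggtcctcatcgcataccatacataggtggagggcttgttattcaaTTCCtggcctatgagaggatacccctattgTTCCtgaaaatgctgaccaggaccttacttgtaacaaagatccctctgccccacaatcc
Vegfa: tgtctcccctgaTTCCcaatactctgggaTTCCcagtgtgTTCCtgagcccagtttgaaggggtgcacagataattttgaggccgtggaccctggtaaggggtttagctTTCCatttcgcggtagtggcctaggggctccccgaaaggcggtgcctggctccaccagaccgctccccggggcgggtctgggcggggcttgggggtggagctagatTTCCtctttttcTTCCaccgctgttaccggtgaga
Kdr and Flt1 held 4 GGAA sites each on either strand, Tek held 2 and Vegfa held 6. Of 32851 mouse promoter windows of the same length, 93.4% held at least 1 such site, 76.8% at least 2, 33.4% at least 4 and 8.69% at least 6, so these letters are common in promoters. The letters ACGTG, 1 form of the core read by hypoxia-inducible factors, were in none of the 4 windows and in 16.6% of all windows, both strands searched. The form GCGTG was not counted, so the windows cannot be said to lack the core. A second Vegfa entry, whose window at chr17:46025164-46025413 lies inside the gene as placed above, held 1 ACGTG and 2 GGAA sites. Among the other members in the promoter table, Vegfc, Nrp1 and Apln held 1, 4 and 3 GGAA sites.

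The libraries held 14438471 UMIs in Pdgfra-Cre, 30826733 in Pdgfrb-Cre and 13352288 in wild type, and 1409 Pdgfra-Cre, 3903 Pdgfrb-Cre and 2668 wild-type cells were kept. Pairs of libraries shared 1 to 5 cell barcodes. Tert itself had 7 to 14 UMIs per library, 4 of them in Pdgfra-Cre stroma, 1 in Pdgfrb-Cre stroma and 3 in wild-type stroma, and 3′ tags outside a deleted exon could not check the deletion in any case. Depth differed within lineages: median UMIs per capillary cell were 4319 in Pdgfra-Cre, 9648 in Pdgfrb-Cre and 1963 in wild type, and per stromal cell 9726 in Pdgfra-Cre, 10537 in Pdgfrb-Cre and 1795 in wild type. Of the Pdgfra-Cre stromal cells, 422 of 605 carried Wt1 or Tcf21, genes known from the mesenchyme of visceral fat, against 3 of 570 in Pdgfrb-Cre and 2 of 243 in wild type. The Pdgfra-Cre stromal ratios past 2-fold are also given without those cells. A cell of the same kind in which neither gene was seen stays in, so this need not remove the whole class.

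The lineages were set from marker UMIs, so the sums of those markers, in counts per 1000000 of the lineage's own UMIs (CPM), describe the sets and do not test their names. The 12 pan-endothelial markers summed to between 5971 and 9536 CPM in the 3 endothelial lineages and to at most 232 CPM in stroma and 102 in macrophages. In mural cells they summed to 244 CPM in Pdgfra-Cre, 287 in Pdgfrb-Cre and 1183 in wild type. The mural list summed to between 14903 and 25701 CPM in mural cells, but arterial cells also carried 8490, 5350 and 4265 CPM of it in Pdgfra-Cre, Pdgfrb-Cre and wild type, among it the smooth muscle actin Acta2 at 2782, 1068 and 575 CPM. Markers of high endothelial venules, vessels of lymph nodes, summed to 4.88 CPM in Pdgfra-Cre, 630.2 in Pdgfrb-Cre and 1546 in wild-type venous cells, with 4, 2 and 0 of the 5 markers at 0. In capillary cells they summed to 9.90, 33.8 and 190 CPM, with Glycam1 at 0, 0 and 162 CPM, and their part in the endothelial differences between libraries was not tested. The Pdgfra-Cre library held 65 capillary, 21 venous, 19 arterial, 14 mural and 605 stromal cells and 68 macrophages. The Pdgfrb-Cre library held 147, 17, 33, 19, 570 and 113 of these, and the wild-type library 314, 89, 64, 46, 243 and 44. Fewer cells that carry a transcript and less transcript per cell cannot be told apart in these sums.

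**Figure D1:**
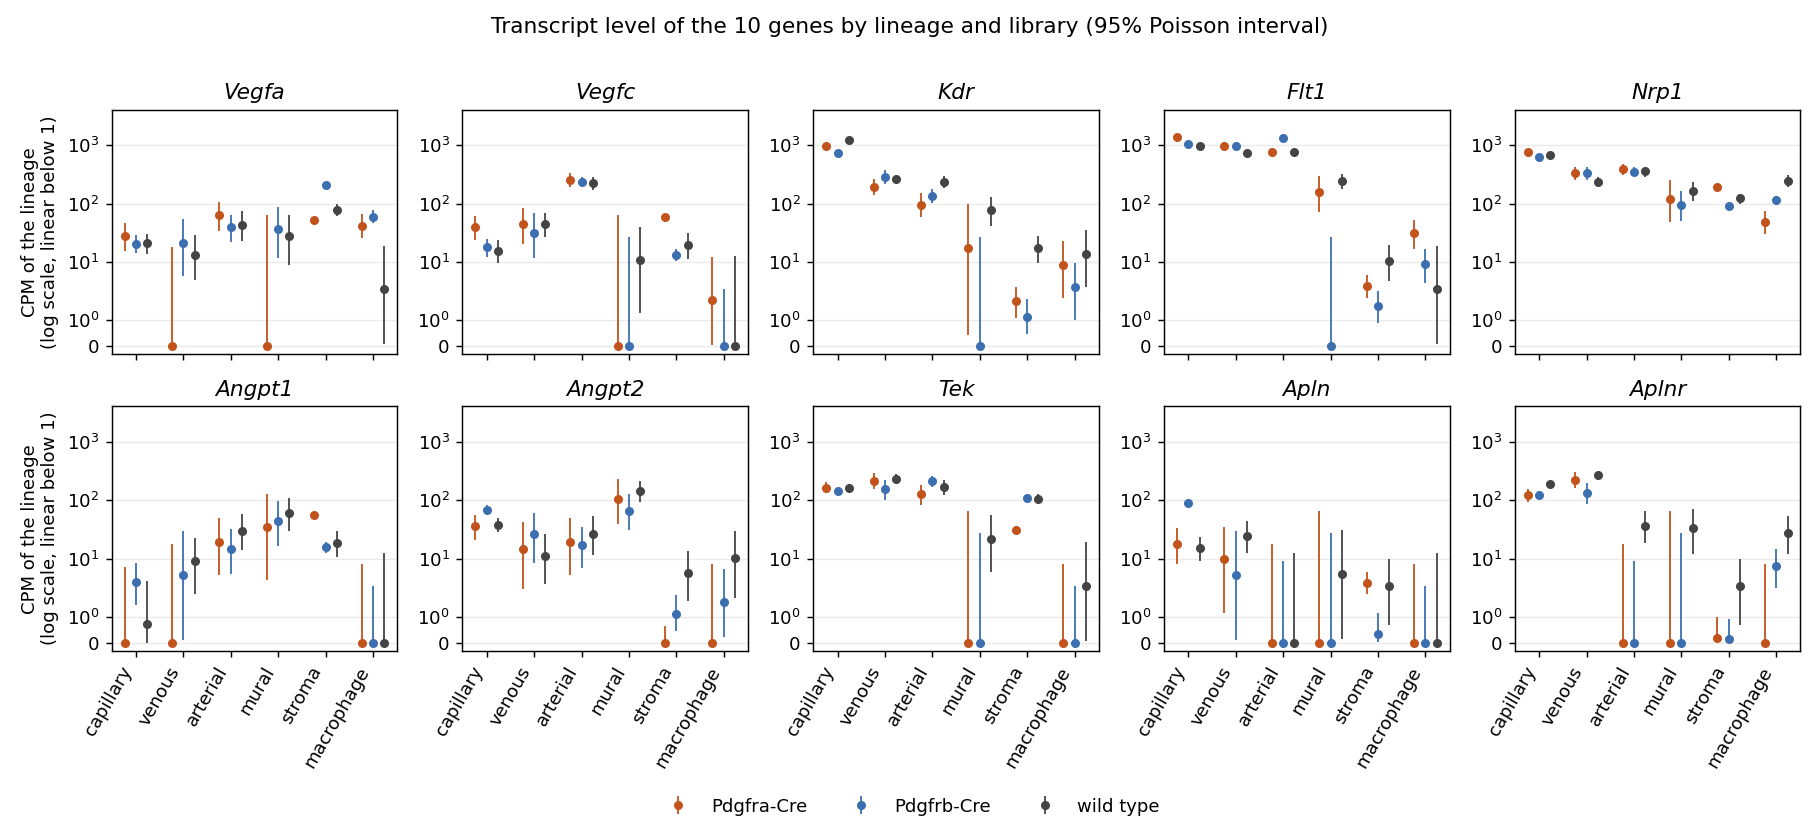
Level of each of the 10 genes (CPM, logarithmic axis that is linear below 1) in 6 lineages, with 1 point per library and bars for the 95% Poisson interval, which covers counting error only. Kdr, Flt1 and Tek stand high in endothelium, Aplnr stands high in venous and capillary cells, Vegfc stands highest in arterial cells, and Apln is at 0 in arterial cells and macrophages.

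Lineages were compared with edgeR's quasi-likelihood test on the 18 sums of library by lineage, with the library as a block. Each p-value sets a difference against the spread left after library and lineage, estimated over all 6 lineages of these 3 libraries. Of the 10 genes, 9 passed the filter on low counts; Apln did not. Against the other lineages together, the endothelial lineages were higher for 7 of 9 genes, where 31.7% of 7913 tested genes were called in either direction and 19.4% were called higher. The median log2 fold change was 3.58 over the 9 genes and 0.02 over all tested genes. This comparison sets log2 levels averaged over lineages against each other, so a lineage near 0 can enlarge it. Capillary against venous cells gave 1 call of 9 (6.84% of all genes), arterial against capillary cells 4 (5.78%) and arterial against venous cells 2 (4.55%). Mural cells against stroma gave 5 calls of 9 (18.4% of all genes), and macrophages against stroma also gave 5 (41.6%), a share close to that of all genes.

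Kdr was highest in capillary cells. It stood at 948 CPM in Pdgfra-Cre, 721 in Pdgfrb-Cre and 1214 in wild-type capillary cells, against 195, 284 and 258 CPM in venous cells and 96.3, 135 and 237 CPM in arterial cells of the same libraries. Every capillary value was above every venous and arterial value, while venous and arterial ranges overlapped. The capillary level was higher than the venous one by a log2 fold change of 1.81 (SE 0.47, edgeR adjusted p = 0.0273), and the arterial level was lower than the capillary one by a log2 fold change of -2.66 (SE 0.49, adjusted p = 0.00332). The capillary-venous call was lost without the Pdgfra-Cre library (1.67, edgeR adjusted p = 0.189), without the wild-type library (1.65, adjusted p = 0.0593), with DESeq2 (0.0881) and with no library term (0.159), and its p ran from 2.44e-07 to 0.189 over 14 alternatives. The arterial-capillary call was lost without the Pdgfra-Cre library (-2.39, edgeR adjusted p = 0.0616), the highest of its 14 alternatives, and the lowest was 5.93e-14.

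Flt1 showed no such step between vessels. Capillary cells had 1362 CPM in Pdgfra-Cre, 1059 in Pdgfrb-Cre and 950.2 in wild type. Arterial cells had 756 CPM in Pdgfra-Cre, 1339.9 in Pdgfrb-Cre and 752 in wild type, and venous cells had 966, 977 and 735 CPM in these libraries. The ranges of the 3 endothelial lineages overlapped, and all lay above mural cells, at 157 CPM (9 UMIs) in Pdgfra-Cre, 0 in Pdgfrb-Cre and 241 CPM (44 UMIs) in wild type. Against the other lineages endothelium was higher in Flt1 by a log2 fold change of 5.56 (SE 0.44, edgeR adjusted p = 3.18e-08) and in Kdr by 4.99 (SE 0.36, adjusted p = 1.27e-08), and both passed under all 14 alternatives. Nrp1 was broader: 766, 622 and 670 CPM in capillary cells of Pdgfra-Cre, Pdgfrb-Cre and wild type, 385, 353 and 354 CPM in arterial cells, 327, 331 and 232 CPM in venous cells and 195, 89.2 and 122 CPM in stroma. Mural cells had 122 CPM in Pdgfra-Cre, 95.5 in Pdgfrb-Cre and 164 in wild type. The Nrp1 capillary, arterial, venous and stromal ranges stepped down in that order without overlap, and stroma, macrophages and mural cells overlapped with each other. Endothelium exceeded the other lineages in Nrp1 by a log2 fold change of 1.58 (SE 0.23, edgeR adjusted p = 4.50e-05), which passed under all 14 alternatives, while capillary against venous cells gave 1.08 (adjusted p = 0.112). Arterial cells gave -0.88 against capillary cells (edgeR adjusted p = 0.232) and 0.20 against venous cells (0.896). No Nrp1 step between vessel types thus passed the threshold.

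Vegfc was highest in arterial cells. It stood at 255 CPM in Pdgfra-Cre, 238 in Pdgfrb-Cre and 224 in wild-type arterial cells, against 43.9, 31.5 and 44.6 CPM in venous cells and 39.6, 17.8 and 15.6 CPM in capillary cells. The arterial mean of 239 ± 15.6 CPM (SD, n = 3 libraries) had no overlap with any other lineage. Arterial cells were higher than capillary cells by a log2 fold change of 3.48 (SE 0.38, edgeR adjusted p = 6.30e-05), which passed under all 14 alternatives, and higher than venous cells by 2.51 (SE 0.41, adjusted p = 0.00167). The arterial-venous call missed the threshold without the wild-type library (2.76, edgeR adjusted p = 0.0507), the highest of 14 alternatives, and the lowest was 1.04e-08. Mural cells had no Vegfc UMI in Pdgfra-Cre or Pdgfrb-Cre and 10.9 CPM in wild type, and mural cells against stroma gave -2.51 (edgeR adjusted p = 0.0525). Macrophages held 1 Vegfc UMI in Pdgfra-Cre and none in the other libraries, and they were lower than stroma by a log2 fold change of -5.28 (SE 0.82, edgeR adjusted p = 4.74e-05), under all 14 alternatives too.

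Vegfa, the ligand of Kdr and Flt1, had its highest mean in stroma. Stroma had 52.5 CPM (297 UMIs) in Pdgfra-Cre, 211 CPM (1291 UMIs) in Pdgfrb-Cre and 78.8 CPM (69 UMIs) in wild type. Arterial cells had 62.6 CPM in Pdgfra-Cre, 39.2 in Pdgfrb-Cre and 43.5 in wild type, macrophages 42.0, 59.9 and 3.44 CPM, capillary cells 27.7, 20.6 and 20.8 CPM, and mural cells 0, 36.7 and 27.4 CPM. Venous cells had no Vegfa UMI in Pdgfra-Cre, 21.0 CPM in Pdgfrb-Cre and 13.4 CPM in wild type. Every neighbouring pair of lineages in the order of means overlapped, and the stromal mean was 114 ± 85.1 CPM (SD, n = 3). Endothelium against the other lineages gave a log2 fold change of -1.08 (SE 0.45, edgeR adjusted p = 0.0802), which passed under 4 of 14 alternatives. Mural cells were lower than stroma by -2.32 (SE 0.73, edgeR adjusted p = 0.0337), passing under 8 of 14 alternatives and missing without the Pdgfrb-Cre library (adjusted p = 0.289) and without the wild-type library (0.104). Macrophages were lower than stroma by -1.52 (SE 0.52, edgeR adjusted p = 0.0265), passing under 9 of 14 and missing without the Pdgfrb-Cre library (-1.31, adjusted p = 0.223) and without the wild-type library (-1.13, adjusted p = 0.160).

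Tek was shared by all vessels and, at a lower level, by stroma. Venous cells had 215 CPM in Pdgfra-Cre, 152 in Pdgfrb-Cre and 232 in wild type. Arterial cells had 125, 213 and 167 CPM in Pdgfra-Cre, Pdgfrb-Cre and wild type, capillary cells 164, 143 and 164 CPM, and stroma 31.0, 107 and 105 CPM. The 3 endothelial lineages overlapped, and stroma lay below them and above mural cells, which had 0 UMIs in Pdgfra-Cre and Pdgfrb-Cre and 4 in wild type. T and B cells, which should lack Tek, had at most 2.63 CPM. Endothelium was higher in Tek than the other lineages by a log2 fold change of 4.36 (SE 0.41, edgeR adjusted p = 2.17e-07), and macrophages were lower than stroma by -6.87 (SE 0.87, adjusted p = 6.16e-06), both under all 14 alternatives. Mural cells and macrophages near 0 enter the endothelial comparison with the same weight as stroma. In mean CPM stroma had 80.9, against 157 to 200 in the endothelial lineages. Mural cells were lower than stroma by -3.25 (SE 0.77, edgeR adjusted p = 0.00623), which missed the threshold without the Pdgfrb-Cre library (-2.37, adjusted p = 0.10) and when each sum needed 20 cells (0.230), the highest of 14 alternatives.

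The ligands of Tek both had their highest mean in mural cells, which were called higher than stroma for Angpt2 alone. Angpt1 had 34.8, 44.1 and 60.2 CPM in mural cells of Pdgfra-Cre, Pdgfrb-Cre and wild type, 56.1, 15.5 and 18.3 CPM in stroma, 19.3, 14.7 and 30.1 CPM in arterial cells, and at most 4.01 CPM in capillary cells. Mural, stromal and arterial ranges overlapped. Mural cells against stroma gave a log2 fold change of 0.57 (SE 0.65, edgeR adjusted p = 0.620), past the threshold under 0 of 14 alternatives. Mural Angpt1 rested on 8 UMIs in both Cre libraries together. Macrophages had no Angpt1 UMI in any library, so against a floor of 3 counts over the group the level was at least 20.6-fold higher in stroma and at least 30.8-fold higher in mural cells with the libraries pooled. The stromal bound was 7.29-fold without the Pdgfra-Cre library and 12.6-fold without the Pdgfrb-Cre library, and the mural bound was 13.4-fold without the Pdgfrb-Cre library. The edgeR call that macrophages were lower than stroma (adjusted p = 3.18e-04) passed under all 14 alternatives. Arterial cells were called higher than capillary cells in Angpt1 (log2 fold change 3.17, SE 0.83, edgeR adjusted p = 0.0353), on 4 arterial UMIs in Pdgfra-Cre, 6 in Pdgfrb-Cre and 9 in wild type. Those cells carried the mural markers given above, and once cells with 3 markers of both an endothelial and a mural list were left out, no arterial Angpt1 UMI remained in any library and the difference was -0.11.

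Among the 6 lineages, Angpt2 had its highest mean in mural cells and the next in capillaries, although in Pdgfrb-Cre the capillary level was the higher of the pair. Mural cells had 104 CPM (6 UMIs) in Pdgfra-Cre, 66.1 CPM (9 UMIs) in Pdgfrb-Cre and 142 CPM (26 UMIs) in wild type. Capillary cells had 35.6, 67.6 and 38.0 CPM in Pdgfra-Cre, Pdgfrb-Cre and wild type, arterial cells 19.3, 17.1 and 26.7 CPM and venous cells 14.6, 26.3 and 11.1 CPM. Mural and capillary ranges overlapped by a small margin, and the capillary range lay above the arterial and venous ones. Mural cells were higher than stroma, which had at most 5.71 CPM, by a log2 fold change of 6.04 (SE 0.75, edgeR adjusted p = 2.09e-05), under all 14 alternatives. Mural Angpt2 was still 115 CPM in Pdgfra-Cre, 56.8 in Pdgfrb-Cre and 131 in wild type without the mixed cells described above. The smaller excess of endothelium over the other lineages (1.68, SE 0.48, edgeR adjusted p = 0.0125) missed the threshold without the Pdgfra-Cre library (1.31, adjusted p = 0.0701), without the Pdgfrb-Cre library (1.16, 0.262) and without mixed cells (0.60, 0.598, the highest of 14 alternatives). The other lineages there include mural cells, whose mean of 104 CPM was above the capillary mean of 47.1 CPM.

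Of the endothelial receptors in mural cells, Kdr did not keep its call in this check and Flt1 did. Mural Kdr was called higher than stromal Kdr (log2 fold change 2.66, SE 0.82, edgeR adjusted p = 0.0304) on 1 UMI in Pdgfra-Cre, 0 in Pdgfrb-Cre and 14 in wild type. It was lost when the Pdgfra-Cre, Pdgfrb-Cre or wild-type library was left out (2.51, 2.53 and 1.42, edgeR adjusted p = 0.116, 0.0545 and 0.662), and without mixed cells no UMI was left in Pdgfra-Cre or Pdgfrb-Cre and 3 in wild type. Its adjusted p passed under 6 of 14 alternatives. Mural Flt1 was higher than stromal Flt1 by 4.72 (SE 0.83, edgeR adjusted p = 5.40e-04), passed under all 14, and had 134, 0 and 123 CPM in Pdgfra-Cre, Pdgfrb-Cre and wild type without mixed cells. How much RNA from neighbouring endothelial cells the mural droplets held was not tested.

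Apelin and its receptor were both at or near 0 in arterial cells of both Cre libraries. Apln had 17.8 CPM (9 UMIs) in Pdgfra-Cre, 88.2 CPM (154 UMIs) in Pdgfrb-Cre and 14.9 CPM (20 UMIs) in wild-type capillary cells, and 2, 1 and 11 UMIs in the venous cells of these libraries. No Apln UMI was seen in arterial cells or macrophages of any library, so the capillary level was at least 15.5-fold higher than the arterial one and at least 31.1-fold higher than the macrophage one with the libraries pooled. These bounds rest on the Pdgfrb-Cre library, and without it they were 2.65-fold and 3.89-fold. Aplnr stood at 224, 131 and 265 CPM in venous cells of Pdgfra-Cre, Pdgfrb-Cre and wild type, 121, 121 and 187 CPM in capillary cells, and 0, 0 and 36.8 CPM in arterial cells. Venous and capillary ranges overlapped, and both lay above the arterial one. Arterial Aplnr was lower than venous Aplnr by a log2 fold change of -4.36 (SE 0.71, edgeR adjusted p = 0.00170), under all 14 alternatives, and lower than capillary Aplnr by -3.75 (SE 0.70, adjusted p = 0.00382). The arterial-capillary call missed the threshold without the Pdgfrb-Cre library (-3.09, edgeR adjusted p = 0.0884, the highest of 14 alternatives). Endothelium exceeded the other lineages in Aplnr by 3.87 (SE 0.56, edgeR adjusted p = 3.42e-05), a call that could not be made without the wild-type library (4.53, adjusted p = 1), where few UMIs were left in the other lineages. Macrophages had 0 Aplnr UMIs in Pdgfra-Cre, 8 in Pdgfrb-Cre and 8 in wild type and were called higher than stroma (3.92, SE 1.02, edgeR adjusted p = 0.00478), except without the Pdgfrb-Cre library (3.41, adjusted p = 0.0739).

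**Figure D2:**
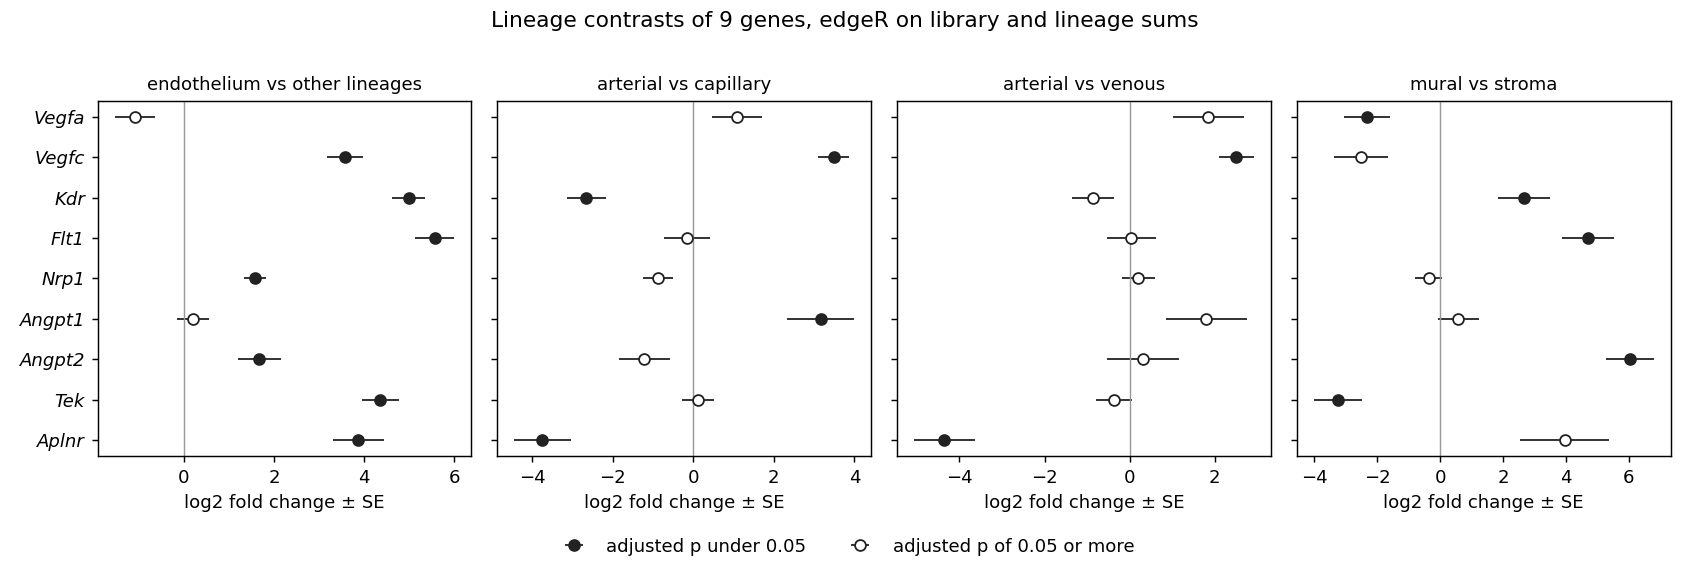
Log2 fold changes with standard errors from edgeR for the 9 genes tested, in endothelium against other lineages, arterial against capillary, arterial against venous and mural against stroma, with filled points for adjusted p under 0.05. Flt1 (5.56) and Kdr (4.99) lead the endothelial contrast, Vegfc (3.48 and 2.51) both arterial ones and Angpt2 (6.04) the mural one.

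Other genes of these systems were read as lists. Endothelium was higher in 2 of 5 other VEGF family genes, Flt4 (7.35), the lymphatic receptor of Vegfc, and the co-receptor Nrp2 (1.78), and in 3 of 5 tested angiopoietin and apelin pathway genes, Tie1 (5.76), Ptprb (6.52), a phosphatase acting on Tek, and Angptl4 (1.59), all as log2 fold changes past an edgeR adjusted p of 0.05. The median over these lists was -0.54 and 1.59. Of all genes tested, 19.4% were called higher in endothelium. Of 10 tip cell and sprouting genes, 5 were higher in endothelium, among them the Notch ligand Dll4 (5.81) and the diaphragm protein Plvap (5.06). Capillary cells exceeded venous cells in Dll4 (2.41), the netrin receptor Unc5b (4.02) and the Flt1 ligand Pgf (8.33), and were lower in Plvap (-3.80). Capillary Pgf stood far higher in Pdgfrb-Cre than in the other libraries, with few wild-type UMIs, as given below, so the size of its fold change is uncertain. The list genes were not recomputed with a library left out or under the other alternatives. Of 5 flow-set endothelial factors, 4 were higher in endothelium, among them Nos3 (7.17) and Klf2 (1.18), and of 16 tested hypoxia-response genes 6 were higher and 1, Hk2 (-5.25), was lower. Mural cells were lower than stroma in Vegfd (-4.88), another lymphatic ligand, and higher in Pgf (2.57).

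Within stroma, Tek was higher in cells with interstitial progenitor markers. Stromal cells with at least 2 of 6 markers of interstitial progenitors, a class of adipose fibroblasts, were called interstitial, a split chosen after the data were seen. This gave 176 interstitial and 429 other cells in Pdgfra-Cre, 430 and 140 in Pdgfrb-Cre, and 156 and 87 in wild type. Seeing 2 markers depends on depth, which was lowest in wild-type stroma, so shallow progenitors may be among the other cells. Tek stood at 56.9 CPM in interstitial and 16.9 in other stromal cells of Pdgfra-Cre, 125.5 and 13.6 CPM in Pdgfrb-Cre, and 138 and 16.9 CPM in wild type. The interstitial level was 3.37-fold (95% interval 2.45 to 4.67) in Pdgfra-Cre, 9.22-fold (5.46 to 17.0) in Pdgfrb-Cre and 8.17-fold (3.08 to 30.7) in wild type that of the other cells, and the 3 interstitial values lay above the other 3. In edgeR the difference was 2.48 (log2, SE 0.32, adjusted p = 0.00982), 1 of 5 tested members, where 1.26% of 9259 genes were called. It missed the threshold without the wild-type library (2.38, edgeR adjusted p = 0.0958), the highest of 7 alternatives.

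Nrp1 ran the other way in the same split. It had 155 CPM in interstitial and 218 in other cells of Pdgfra-Cre, 55.5 and 256 CPM in Pdgfrb-Cre, and 75.2 and 249 CPM in wild type. All 3 interstitial values lay below the 3 others, with a log2 fold change of -1.44 (SE 0.32, edgeR adjusted p = 0.0937), which passed under 4 of 7 alternatives, DESeq2 among them (0.0122). Angpt1 had 38.8 and 65.4, 10.0 and 42.8, and 18.8 and 16.9 CPM in interstitial and other cells of Pdgfra-Cre, Pdgfrb-Cre and wild type (-1.14, edgeR adjusted p = 0.217). Vegfa had 57.9 and 49.6 CPM in Pdgfra-Cre, 218 and 178 in Pdgfrb-Cre, and 68.9 and 105 in wild type (0.06, edgeR adjusted p = 0.982).

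**Figure D3:**
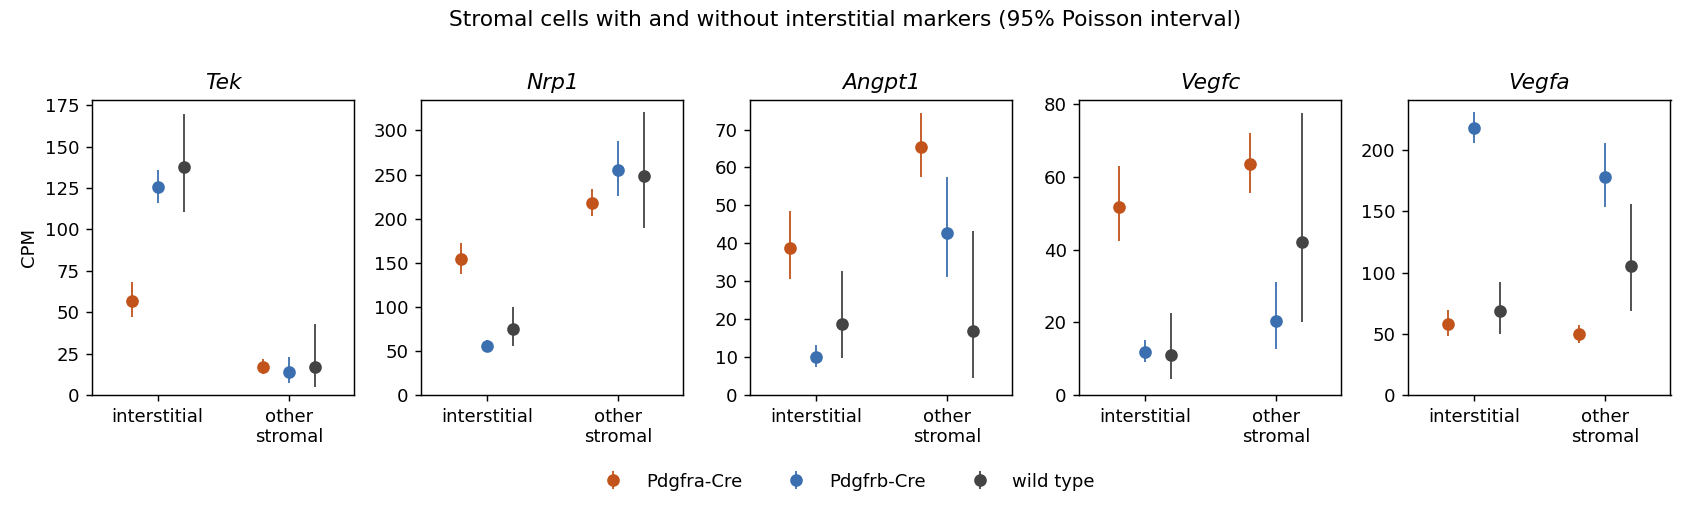
Level (CPM, 95% Poisson intervals) of Tek, Nrp1, Angpt1, Vegfc and Vegfa in interstitial and other stromal cells of the 3 libraries. The interstitial Tek points (56.9, 125.5 and 138 CPM) sit above the others (16.9, 13.6 and 16.9 CPM), and the Nrp1 points sit below.

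The genotypes were each 1 library, so no test between them was possible. Ratios below carry exact 95% intervals for counting error only, and features past 2-fold with at least 10 CPM in either library are counted as a description. The Pdgfra-Cre and Pdgfrb-Cre comparisons share the wild-type library. In stroma, 5 of the 7 members measured were past 2-fold in Pdgfra-Cre, where 23.8% of all features were, and 3 of 7 in Pdgfrb-Cre (22.9%). Of these, 2 were higher and 3 lower in Pdgfra-Cre (12.4% and 11.3% of all features), and 1 was higher and 2 lower in Pdgfrb-Cre (9.22% and 13.7%). In capillaries 1 of 9 was past 2-fold in Pdgfra-Cre (16.8% of all features) and 1 of 9 in Pdgfrb-Cre (15.3%). The median log2 ratio of the members in stroma was -0.51 in Pdgfra-Cre and -0.34 in Pdgfrb-Cre, against 0.02 and -0.11 over all features.

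Stromal ligand genes differed between the libraries, whose stromal cells also lay in different clusters. In a Leiden clustering the most populated stromal cluster of the Pdgfra-Cre library held 494 Pdgfra-Cre, 1 Pdgfrb-Cre and 0 wild-type cells, that of Pdgfrb-Cre held 21, 329 and 0, and that of wild type held 6, 12 and 188. Differences within a class and differences in the kind of stromal cell cannot be told apart with 1 library each. Vegfa, at 211 CPM in Pdgfrb-Cre and 78.8 CPM in wild type, was 2.68-fold (2.11 to 3.47) the wild-type level, and Pdgfra-Cre was 0.667-fold (0.512 to 0.880), or 0.539-fold without the Wt1 or Tcf21 cells and 0.471-fold in other stromal cells alone. The Pdgfrb-Cre ratio was 3.16 in interstitial cells and 1.69 in other stromal cells. A Vegfa UMI was seen in 28.4% of Pdgfra-Cre, 69.1% of Pdgfrb-Cre and 17.3% of wild-type stromal cells, and with every cell thinned to 1000 UMIs in 4.56% (3.03 to 6.57) in Pdgfra-Cre, 17.5% (14.4 to 20.8) in Pdgfrb-Cre and 1.90% (0.52 to 4.78) in wild type, against at most 1.11% in T and B cells thinned alike.

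Vegfc, at 59.4 CPM (336 UMIs) in Pdgfra-Cre, 13.3 CPM (81 UMIs) in Pdgfrb-Cre and 19.4 CPM (17 UMIs) in wild-type stroma, was 3.06-fold (1.88 to 5.32) the wild-type level in Pdgfra-Cre and 0.683-fold in Pdgfrb-Cre. Angpt1, at 56.1 CPM (317 UMIs) in Pdgfra-Cre, 15.5 CPM (95 UMIs) in Pdgfrb-Cre and 18.3 CPM (16 UMIs) in wild type, was 3.07-fold (1.86 to 5.44) in Pdgfra-Cre and 0.851-fold in Pdgfrb-Cre. Both ligands stood highest in the Pdgfra-Cre library over all stromal cells. Without the Wt1 or Tcf21 cells these ratios were 2.30 for Vegfc and 3.41 for Angpt1, on 183 Pdgfra-Cre cells. How many of those were of the same kind, with neither gene seen, was not tested. Within Pdgfra-Cre, cells with Wt1 or Tcf21 had 1.37-fold (1.02 to 1.88) the Vegfc of cells without, and 0.919-fold (0.700 to 1.22) the Angpt1. In Pdgfra-Cre the Vegfc ratio was 4.73 in interstitial cells alone and 1.51 in other stromal cells alone, and the Angpt1 ratio 2.06 and 3.88. In Pdgfrb-Cre the Vegfc ratio was 1.08 and 0.484, and the Angpt1 ratio turned between the sets, at 0.534 in interstitial cells and 2.54 in other stromal cells.

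Tek in stroma, at 31.0 CPM (175 UMIs) in Pdgfra-Cre, 107 CPM (652 UMIs) in Pdgfrb-Cre and 105 CPM (92 UMIs) in wild type, was 0.295-fold (0.228 to 0.384) the wild-type level in Pdgfra-Cre and 1.02-fold (0.816 to 1.28) in Pdgfrb-Cre. The Pdgfra-Cre library also had the smallest share of interstitial cells and 549 CPM of their summed markers, against 5043 in Pdgfrb-Cre and 4131 in wild type. The Pdgfra-Cre Tek ratio was 0.413 in interstitial cells alone, 1.0 in other stromal cells alone and 0.270 without the Wt1 or Tcf21 cells. Kdr in stroma had 12, 7 and 15 UMIs in Pdgfra-Cre, Pdgfrb-Cre and wild type, and Flt1 22, 11 and 9, with ratios in Pdgfra-Cre and Pdgfrb-Cre of 0.124 and 0.067 for Kdr and 0.379 and 0.175 for Flt1. Without the Wt1 or Tcf21 cells the Pdgfra-Cre ratios were 0.151 for Kdr and 0.586 for Flt1. The Flt1 ratio was 0.712 in other stromal cells alone and turned to 1.75 in stroma set from Leiden clusters, and in Pdgfrb-Cre it was 0.776 with those clusters, so Flt1 did not stay past 2-fold under these settings. Beside these low levels, the endothelial markers summed to 73 and 81 CPM in Pdgfra-Cre and Pdgfrb-Cre stroma and 232 CPM in wild-type stroma, and their part in the result was not tested.

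**Figure D4:**
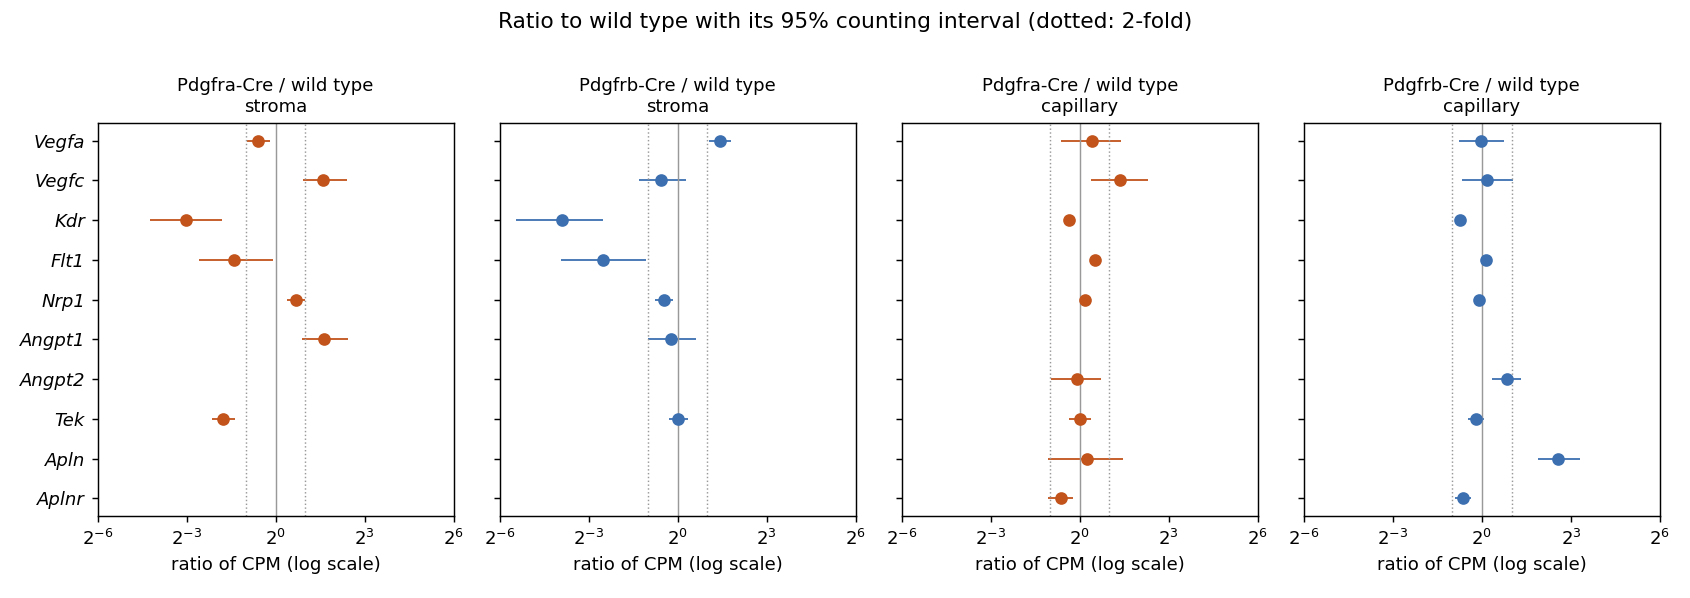
Ratio of each gene's CPM in the Pdgfra-Cre and Pdgfrb-Cre libraries to that in wild type (logarithmic axis, exact 95% intervals) in stroma and capillary cells; genes under 10 CPM in both libraries have no point. Vegfc (3.06) and Angpt1 (3.07) in Pdgfra-Cre stroma, Vegfa (2.68) in Pdgfrb-Cre stroma and Apln (5.92) in Pdgfrb-Cre capillaries stand to the right, and Tek (0.295) in Pdgfra-Cre stroma to the left.

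In capillaries all measured members were within 2-fold except Vegfc in Pdgfra-Cre and Apln in Pdgfrb-Cre. Capillary cells too lay in different clusters: 1 cluster held 59 Pdgfra-Cre, 128 Pdgfrb-Cre and 9 wild-type cells, and another 16, 5 and 191, so a change within 1 kind of cell and a change in the kind of cell cannot be told apart. Apln was 5.92-fold (3.71 to 9.97) the wild-type level in Pdgfrb-Cre and 1.20-fold in Pdgfra-Cre. Of the 154 Pdgfrb-Cre UMIs, 32 came from 1 cell, and without the highest cell of each library the ratio was 6.14. Angpt2 was 1.78-fold (1.27 to 2.52) in Pdgfrb-Cre, or 2.56-fold without mixed cells, and 0.938-fold in Pdgfra-Cre. Kdr was 0.781-fold (0.704 to 0.866) in Pdgfra-Cre and 0.594-fold (0.551 to 0.639) in Pdgfrb-Cre, and Aplnr was 0.646-fold (0.480 to 0.858) in Pdgfra-Cre and 0.650-fold (0.539 to 0.783) in Pdgfrb-Cre. Tek was 1.0-fold in Pdgfra-Cre and 0.871-fold in Pdgfrb-Cre, Nrp1 1.14-fold and 0.928-fold, and Flt1 1.43-fold (1.31 to 1.57) and 1.11-fold. Vegfc was 2.53-fold (1.30 to 4.91) in Pdgfra-Cre, on 20 UMIs against 21, 1.77-fold without mixed cells and 6.52-fold with the stricter gate.

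Capillary cells with Apln had Angpt2 more often than other capillary cells in each library, and were also deeper. An Apln UMI was seen in 6 of 65 capillary cells in Pdgfra-Cre (9.23%), 32 of 147 in Pdgfrb-Cre (21.8%) and 11 of 314 in wild type (3.50%). An Angpt2 UMI was seen in 12.3% of Pdgfra-Cre, 40.8% of Pdgfrb-Cre and 10.5% of wild-type capillary cells, against at most 0.290% for Apln and 1.45% for Angpt2 in T and B cells, whose median depths ran from 3333.5 to 6276.5 UMIs, against the capillary medians given above. Among cells with Apln, 66.7% in Pdgfra-Cre, 68.8% in Pdgfrb-Cre and 36.4% in wild type had Angpt2, against 6.78%, 33.0% and 9.57% of the other capillary cells of these libraries. Cells with Apln were deeper, at a median of 14624 against 8603 UMIs in Pdgfrb-Cre and 5597 against 1928 in wild type, so shares of cells cannot be read alone. With every cell thinned to 1000 UMIs, Apln was seen in 3 of 61 Pdgfra-Cre cells (4.92%, exact interval 1.03 to 13.7), 9 of 146 Pdgfrb-Cre cells (6.16%, 2.86 to 11.4) and 3 of 276 wild-type cells (1.09%, 0.22 to 3.14). Angpt2 was seen in 3.28% in Pdgfra-Cre, 9.59% (5.34 to 15.6) in Pdgfrb-Cre and 2.90% (1.26 to 5.63) in wild type, against at most 0.590% in lymphocytes. At equal depth the intervals of the libraries overlapped for both genes, those of Pdgfrb-Cre and wild type by a small margin. Overlap does not show equal shares, and both shares stayed highest in Pdgfrb-Cre.

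The cells with Apln differed from other capillary cells in the receptors as well, given as CPM and so scaled for depth; they were chosen on an Apln UMI, and the values are a description. In Pdgfrb-Cre they had 544 CPM of Flt1 against 1332 in the others (0.41-fold, 0.36 to 0.46), 591 against 789 of Kdr (0.75-fold) and 154 against 104 of Aplnr (1.48-fold, 1.11 to 1.95). Angpt2 was 97.6 against 51.7 CPM (1.89-fold, 1.29 to 2.76), and Pgf 379 against 70.1 CPM (5.41-fold, 4.17 to 7.07). In wild type, on 11 cells, Aplnr was 306 against 169 CPM (1.81-fold, 1.31 to 2.46) and Flt1 0.88-fold (0.74 to 1.04). In Pdgfra-Cre, on 6 cells, Aplnr was 2.90-fold (1.61 to 5.07) and Flt1 0.51-fold (0.38 to 0.67). Aplnr was thus higher in the cells with Apln in all 3 libraries, and Flt1 was lower in both Cre libraries with the wild-type interval reaching 1.

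**Figure D5:**
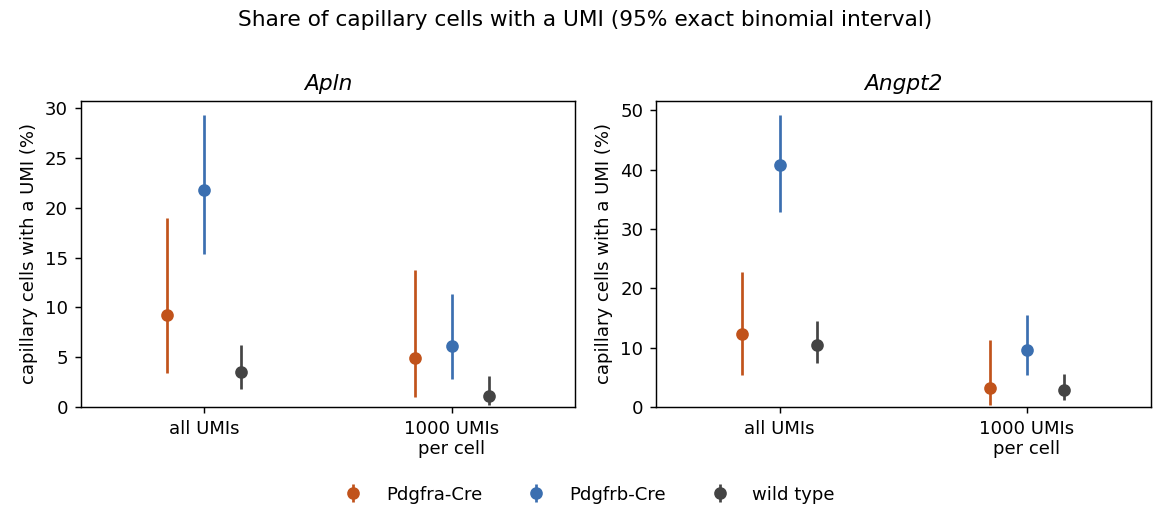
Percent of capillary cells with an Apln or Angpt2 UMI in each library, with all UMIs and after thinning to 1000 UMIs per cell, with exact 95% binomial intervals. Apln falls to 4.92%, 6.16% and 1.09% and Angpt2 to 3.28%, 9.59% and 2.90% in Pdgfra-Cre, Pdgfrb-Cre and wild type once depth is made equal. The intervals overlap, those of Pdgfrb-Cre and wild type by a small margin.

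Smaller lineages gave coarser values. In Pdgfrb-Cre arterial cells 2 of 9 members were past 2-fold (26.5% of all features): Aplnr, with 0 UMIs against 11 in wild type and so at least 5.0-fold lower, and Angpt1 (0.489-fold, 0.143 to 1.54). Flt1 was 1.78-fold (1.52 to 2.09) and Kdr 0.568-fold (0.392 to 0.819) in the same cells, while Vegfc was 1.06-fold. Without mixed cells the Aplnr floor ratio was 0.930, so the difference was not detectable there. In Pdgfra-Cre venous cells 1 of 9 was past 2-fold (27.2%), Apln on 2 UMIs (0.398-fold, 0.043 to 1.83). In macrophages 4 of 6 members measured were past 2-fold in Pdgfra-Cre (37.1%) and 5 of 5 in Pdgfrb-Cre (34.1%). The 5 in Pdgfrb-Cre included Kdr (0.268-fold) and Angpt2 (0.179-fold), at no more than 13.7 and 10.3 CPM in any library, near the 10 CPM floor. With a floor of 50 CPM, 1 member was left past 2-fold in Pdgfra-Cre macrophages and 2 in Pdgfrb-Cre. Nrp1 had over 20 UMIs in each library, at 48.6 CPM (22 UMIs) in Pdgfra-Cre, 113 CPM (123 UMIs) in Pdgfrb-Cre and 244 CPM (71 UMIs) in wild type, or 0.199-fold (0.118 to 0.325) in Pdgfra-Cre and 0.464-fold (0.344 to 0.631) in Pdgfrb-Cre. The 13 macrophage markers summed to 21198 CPM in Pdgfra-Cre, 19973 in Pdgfrb-Cre and 36387 in wild type in the same sums, with C1qa at 837, 1217 and 3591 CPM, and their part in the Nrp1 difference was not tested. Macrophage Vegfa, on 19 UMIs in Pdgfra-Cre and 65 in Pdgfrb-Cre against 1 in wild type, was 12.2-fold (1.94 to 508) in Pdgfra-Cre and 17.4-fold (3.02 to 699) in Pdgfrb-Cre. Macrophage Aplnr was 0 UMIs in Pdgfra-Cre against 8 in wild type, at least 4.15-fold lower.

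Of the other pathway genes in capillaries, 1 of 4 measured VEGF family genes and 2 of 4 angiopoietin and apelin pathway genes were past 2-fold in Pdgfra-Cre, all higher, and as many in Pdgfrb-Cre. Of all features in capillaries, 16.8% were past 2-fold in Pdgfra-Cre and 15.3% in Pdgfrb-Cre. Of 9 tip cell and sprouting genes, 0 were higher and 4 lower in Pdgfra-Cre, and 3 higher and 1 lower in Pdgfrb-Cre. Of 15 hypoxia genes, 1 was higher and 1 lower in Pdgfra-Cre, and 2 higher and 1 lower in Pdgfrb-Cre, shares of the list close to those of all features. In capillaries Pgf had 19.8 CPM in Pdgfra-Cre, 177 in Pdgfrb-Cre and 4.47 in wild type, so it was 39.6-fold (18 to 109) in Pdgfrb-Cre on 6 wild-type UMIs. Angptl4, an inhibitor of lipoprotein lipase, had 671 CPM in Pdgfra-Cre, 609 in Pdgfrb-Cre and 200.3 in wild type, and Dll4 had 148, 247 and 107 CPM. Plvap was lower in both Cre libraries, at 57.4 CPM in Pdgfra-Cre and 215 in Pdgfrb-Cre, against 466 CPM in wild type, beside the Glycam1 values given above. In stroma Adm, the vasoactive peptide adrenomedullin, had 271 CPM in Pdgfra-Cre, 32.4 in Pdgfrb-Cre and 47.9 in wild type, and Svep1, a secreted protein that binds Tie1, had 426, 116 and 107 CPM. Of the hypoxia genes measured in stroma, 3 of 15 were past 2-fold higher and 1 lower in Pdgfra-Cre and 3 of 14 higher and 1 lower in Pdgfrb-Cre, among them Hk2 (493, 675 and 123 CPM) and Slc2a1 (24.1, 28.1 and 9.13 CPM). Of all features in stroma, 23.8% were past 2-fold either way in Pdgfra-Cre and 22.9% in Pdgfrb-Cre, near the shares of the hypoxia list. Immediate early genes, which respond to tissue handling, were past 2-fold higher for 9 of 10 in Pdgfra-Cre stroma and 7 of 10 in Pdgfrb-Cre stroma, and for 5 and 6 of 10 in capillaries. Their part in the ligand differences was not tested.

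The genes most like each member were named by Pearson's correlation of log2(CPM + 10) over the 18 sums, which share libraries, among 6941 genes, as a description. Kdr was closest to Adgrl4 (0.97), Gpihbp1 (0.96) and Cd300lg (0.96), of which the last pair were among the markers that set the capillary cells. Flt1 was closest to Adgrf5 (0.98), Rasgrf2 (0.97) and the arterial marker Sox17 (0.97), Tek to Ablim1 (0.97), Ramp2 (0.96) and Ece1 (0.96), and Nrp1 to Tcf4 (0.93), Afap1l1 (0.92) and Fscn1 (0.92). Aplnr was closest to the water channel Aqp1 (0.94), Fam167b (0.92) and Exoc3l2 (0.90). Among the ligands, Angpt1 was closest to S1pr3 (0.95), Pde1a (0.94) and Nr2f1 (0.94), Angpt2 to Dnajc8 (0.89), Art3 (0.88) and Pyurf (0.88), and Vegfc to Bsg (0.92), Pdcd4 (0.88) and Fgfr3 (0.87). Apln (Sult1a1 0.81, Nr5a2 0.80, Col28a1 0.78) and Vegfa (Fn1 0.79, Megf9 0.78, Tmem100 0.75) had the least close neighbours of the 10.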

How the data were processed

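The authors deposited whole-number UMI counts per gene and cell barcode for 3 libraries; per the submitters' processing notes, Cell Ranger 3.1.0, STAR 2.6 and mm10 were used. From these counts, barcodes needed 500 detected genes or more and no more than 15% of UMIs from mitochondrial genes. The cells with the highest Scrublet scores, 0.8% for each 1000 cells, were left out as doublets. Doublets between neighbouring vessel cells may remain.

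A cell joined a broad class with at least 3 of its markers seen and a lead of 10 percentage points in the share of markers seen. Among endothelial cells, a vessel type needed at least 2 UMIs of its markers and any lead over the other types. Only the stricter gate asked for a margin between vessel types. Sums of at least 10 cells entered edgeR 4.0.16 (R 4.3.3; filterByExpr, TMM, quasi-likelihood test, library as block), with Benjamini-Hochberg adjustment over all genes tested; DESeq2 1.42.0 was an alternative. Standard errors were derived from the fold change and the F statistic. Between genotypes, CPM ratios needed 20 cells a library and carry exact binomial intervals at 95%, exact Poisson intervals for levels, for counting error only. Medians of ratios used a prior of 10 CPM. Clustering (scanpy 1.11.5, Leiden, made without the 10 genes) was an alternative.

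All 10 genes were named; of other genes, only those on the pathway lists and, for each member, the 3 with the highest correlation. The members and lists were chosen with earlier results of these data known. The alternatives included other normalisations, no filter, each library left out, stricter gates and a 50 CPM floor. The split of stroma, the removal of mixed cells and of Wt1 or Tcf21 cells, and the bounds without a library were chosen after seeing the data. Promoter windows came from RefSeq, with 7 of 10 genes matched; Angpt1, Angpt2 and Aplnr were not.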

Additional observations from a re-analysis of the deposited data

Results flagged for a closer look

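Flt1 was past 2-fold in opposite directions in the Pdgfra-Cre library against wild type: it was 9.0-fold higher in macrophages, on 14 UMIs in Pdgfra-Cre against 1 in wild type (95% interval 1.37 to 381), and 0.379-fold in stroma, on 22 UMIs against 9. The difference between the lineages was not tested. The stromal ratio was 0.586 without the Wt1 or Tcf21 cells and 0.712 in other stromal cells alone, both within 2-fold, and 1.75 in stroma set from Leiden clusters.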

How the results depend on the processing

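No paired analysis was possible because each genotype was 1 library; the library was a block in the comparison of lineages. Of 791 fold changes of members recomputed under alternatives, 693 kept their direction and side of the threshold, 44 lost a call, 26 gained one and 28 changed sign. Of the 28, 27 were past the threshold on neither side, and the other was Angpt1 in arterial against capillary cells (-0.11 without mixed cells). Of 183 ratios of members, 2 turned round in Pdgfra-Cre stroma: Flt1 (1.75 with Leiden clusters) and Tek (1.0 in other stromal cells alone).

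The 27 uncalled sign changes were as follows, as log2 values. Without mixed cells Angpt1 was -3.78 for endothelium and -5.15 in arterial against venous cells, Angpt2 was -0.15 there, and Flt1 was 0.17 in arterial against capillary cells. Angpt1 for endothelium was -0.48 with DESeq2 and -0.67 with the stricter gate, Flt1 was 0.16 in arterial against capillary cells with 20 cells and -0.0049 in arterial against venous cells with no library term, and Angpt2 there was -0.24 with Leiden clusters. Nrp1 in macrophages against stroma was 0.019 with RLE size factors, 0.022 with DESeq2, 0.017 with 20 cells, 0.081 with the stricter gate and 0.043 with doublets kept, and Vegfa in interstitial cells was -0.014 without Wt1 or Tcf21 cells. Leaving out 1 library at a time, Angpt1 ran from -0.51 to 0.58 for endothelium and from -3.19 to 0.26 in capillary against venous cells, Flt1 from -0.57 to 0.087 in arterial against capillary and from -0.23 to 0.23 in arterial against venous cells, and Tek from -0.17 to 0.33 in arterial against capillary cells. Likewise Angpt2 ran from -0.34 to 0.91 in arterial against venous cells, Nrp1 from -0.67 to 0.033 and Aplnr from -1.55 to 3.88 in mural cells, Nrp1 from -0.61 to 0.65 in macrophages and Vegfa from -0.096 to 0.28 in interstitial cells.

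Leaving out 1 library at a time gave 1547 to 2015 called genes for endothelium (2508 with all libraries), 158 to 290 for capillary against venous (541), 129 to 208 for arterial against capillary (457), 91 to 171 for arterial against venous (360), 636 to 1336 for mural cells (1455), 2048 to 2825 for macrophages (3294) and 62 to 711 for interstitial cells (117). The called members ranged over 0 to 1, 2 to 3, 1 to 2, 2 to 4, 3 to 5 and 0 to 3 in the last 6 of these comparisons. The lowest counts came without Pdgfrb-Cre for endothelium, mural cells and macrophages and without wild type for the others; fewer samples were fitted in each.

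With no filter on low counts 860, 838 and 695 genes were called in capillary-venous, arterial-capillary and arterial-venous comparisons, with no library term 283, 263 and 223, and with 20 cells behind each sum 358, 170 and 163, besides 570 for mural cells. Without mixed cells the arterial comparisons gave 168 and 204. Interstitial cells gave 230 with DESeq2 and 251 without Wt1 or Tcf21 cells, with 2 members each. Capillary-venous members were 0 with DESeq2 or no library term and 3 with no filter, arterial-capillary members 2 with 20 cells, arterial-venous members 4 with no filter, and mural members 3 with 20 cells or 1000 genes a cell. The cause was not tested for these.

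A floor of 50 CPM, which measures fewer features, left 318, 620, 747 and 1056 past 2-fold in Pdgfra-Cre capillary, venous, stromal and macrophage sums, with 0, 0, 3 and 1 members, and 407, 582, 604 and 952 in Pdgfrb-Cre capillary, arterial, stromal and macrophage sums, with 0 arterial, 1 stromal and 2 macrophage members. The mean of CPM per cell gave 2770 and 3566 features in Pdgfra-Cre capillary and venous cells, and 3 and 5 members in Pdgfrb-Cre capillary and arterial cells. In Pdgfrb-Cre the stricter gate gave 3 capillary members, Leiden clusters 1 arterial and 2 macrophage members, and 1000 genes a cell 1 arterial member. Leaving out mixed cells gave 2 capillary and 0 arterial members in Pdgfrb-Cre and 0 capillary members in Pdgfra-Cre. The numbers of members and features measured under each setting are not given here. The member counts of this paragraph thus cannot be read as more or fewer than among all features. Thinning moved Apln to 6.16% of Pdgfrb-Cre and 1.09% of wild-type capillary cells, and Angpt2 to 3.28% of Pdgfra-Cre, 9.59% of Pdgfrb-Cre and 2.90% of wild-type cells.

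Depth limits the mural, venous and arterial sums, where a level can rest on fewer than 10 UMIs, and the wild-type stroma and capillaries, whose cells were the shallowest. With 1 library a genotype, differences between mice, dissections and runs cannot be told apart from genotype.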

Other observations

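Classes outside the 6 lineages also carried these genes. Lymphatic endothelial cells, 13 cells in the Pdgfra-Cre library, had 204 CPM of Angpt2 (95% Poisson interval 144 to 281, 37 UMIs), 568 CPM of Kdr (103 UMIs) and 82.8 CPM of Tek (15 UMIs), with no UMI of Flt1 or Nrp1. Angpt2 there was above every library's capillary level. Mesothelial cells, the lining cells of body cavities, numbered 108 in the Pdgfra-Cre library and 0 in Pdgfrb-Cre and wild type. In Pdgfra-Cre they had 52.3 CPM of Kdr (41.8 to 64.5, 86 UMIs) and 17.6 CPM of Vegfa.

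Natural killer cells had 43.2 CPM of Vegfa in Pdgfra-Cre, 116 in Pdgfrb-Cre and 76.8 in wild type, against at most 7.29 CPM in T and B cells.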
